A study of Rattus norvegicus with 4 samples.

Results

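H19 and Igf2, imprinted genes that lie beside each other, were both lower in rat heart muscle cells transfected with an siRNA to the noncoding transcript Chaer than in cells with a control siRNA. H19 was 5.56 times lower without phenylephrine and 4.37 times lower with it, and Igf2 was 2.41 and 2.23 times lower. With phenylephrine itself both were also lower under each siRNA, but by 1.20 to 1.52 times, with levels scaled to the read total of each library. With Chaer siRNA, these phenylephrine ratios lay inside the bulk of measured genes. The description covers 2 of the 26406 features listed in each library: the row named H19 and the row named ENSRNOG00000020369, both present in all 4 libraries. They were chosen by name with their values in these libraries already known, so every value is a description and no test was made on either. That ENSRNOG00000020369 is Igf2 came with the choice of members. The files give the identifier alone, and the reference table used here pairs 0 of the listed identifiers with a symbol, so this name was not checked against the data.

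The cells were ventricular myocytes from the hearts of 2-day-old Sprague Dawley rats, kept in primary culture, per the labels. They were transfected for 6 h with a negative control siRNA or with an siRNA specific for Chaer, a noncoding transcript linked to growth of the stressed heart, and the medium was then changed. The 4 groups were control siRNA alone, control siRNA with 50 µM phenylephrine, Chaer siRNA alone, and Chaer siRNA with 50 µM phenylephrine, collected at 48 h. Phenylephrine activates α1-adrenergic receptors and makes cultured myocytes enlarge, and the series asked how Chaer bears on that response. All 4 groups were transfected, and the labels name no untransfected cells. Each group was 1 library, and the labels do not say whether the libraries came from separate cultures, so no value has a replicate error. The libraries held 33944988 to 39155363 reads in listed features. Intervals are 95% counting intervals only. No feature carries the name Chaer, so the level of the siRNA target was not analysed here. Markers of myocytes and of other heart cells could not be looked up without symbols, so the labelled cell type was not checked. In such bulk RNA, fewer cells of a type and less RNA per cell cannot be told apart.

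H19 is a long noncoding RNA made from the maternal chromosome, and Igf2 encodes insulin-like growth factor 2, a secreted growth factor made from the paternal chromosome in most fetal tissues. The pair is the textbook case of imprinting. An imprinting control region upstream of H19 binds the insulator protein CTCF on the maternal chromosome, which keeps enhancers downstream of H19 from Igf2. On the paternal chromosome that region is methylated, H19 is silent and the same enhancers serve Igf2. Both genes are strongly expressed before birth in tissues of mesodermal and endodermal origin, the heart included, and decline afterwards. In the RefSeq annotation of assembly GRCr8, H19 and Igf2 lie on chromosome 1 with no gene listed between the end of one and the start of the other, and Mir675 lies inside H19. Mrpl23 and Tnnt3 lie on the H19 side of the pair. Mir483 lies inside Igf2, and Ins2 lies beyond it.

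Each member is also the host of a microRNA, a second product of its transcript, for which no feature is listed by name. The mature sequences, read from the RefSeq table of build GRCr8, are shown with the seed, bases 2 to 8, in capitals. All 4 lie on the minus strand of chromosome 1, and each has a seed of its own. The miR-675 arms come from H19, at chr1:207161800-207161821 and chr1:207161766-207161786, and the miR-483 arms from Igf2, at chr1:207247903-207247924 and chr1:207247865-207247886.
rno-miR-675-5p: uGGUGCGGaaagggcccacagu
rno-miR-675-3p: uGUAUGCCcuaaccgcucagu
rno-miR-483-5p: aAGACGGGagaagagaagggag
rno-miR-483-3p: cACUCCUCcccucccgucuugu

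Igf2 is transcribed from several promoters, and the feature here sums the reads of its whole gene model, so the promoter in use is not resolved. For 2 of its start sites the RefSeq table (GRCr8, minus strand) holds a window of 250 bases before to 50 bases after the start, shown as the sequence where transcripts of this gene begin. H19 has no entry. In these windows 3 short motifs were searched on both strands. The TATA box was searched for as TATAAA. The next motif, named after its letters, was CCAAT. The GC box was searched for as GGGCGG. Capitals mark each match, and no match overlaps another.
Igf2 upstream start, chr1:207253931-207254230: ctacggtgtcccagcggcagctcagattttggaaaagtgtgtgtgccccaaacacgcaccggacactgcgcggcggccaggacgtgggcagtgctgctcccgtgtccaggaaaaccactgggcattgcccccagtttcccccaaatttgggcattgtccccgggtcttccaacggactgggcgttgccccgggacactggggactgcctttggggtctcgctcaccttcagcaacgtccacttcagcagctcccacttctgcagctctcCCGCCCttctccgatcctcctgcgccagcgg
Igf2 downstream start, chr1:207250426-207250725: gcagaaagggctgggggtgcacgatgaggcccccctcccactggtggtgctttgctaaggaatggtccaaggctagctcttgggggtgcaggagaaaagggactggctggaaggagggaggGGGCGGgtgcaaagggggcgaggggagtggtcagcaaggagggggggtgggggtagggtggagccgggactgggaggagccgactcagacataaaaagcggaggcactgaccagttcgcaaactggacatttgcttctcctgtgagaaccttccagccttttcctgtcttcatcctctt
The GC box was the only motif of the 3 found in its exact letters, and near matches such as variants of the TATA box were not searched for. The upstream window holds its reverse complement CCGCCC from base 20 after the start, and the downstream window holds GGGCGG from 129 bases before it. Among 33469 such windows, 33.1% hold a GC box on either strand, 14.2% a TATA box and 37.5% a CCAAT box. The upstream window is 63.3% G or C with 19 CpG dinucleotides, and the downstream window 60.7% with 7, beside medians of 51.7% and 7 over all windows. A match is a description of the letters and not a binding site.

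H19 was the more abundant of the pair in each library, in RPKM (reads per kilobase of gene model, scaled by the authors to the read total of the library). In the control siRNA library it stood at 30.6 RPKM (29.5 to 31.8). It was at 20.1 (19.1 to 21.1) with control siRNA and phenylephrine, 5.52 (5.05 to 6.01) with Chaer siRNA and 4.60 (4.18 to 5.06) with Chaer siRNA and phenylephrine. These levels rest on 2635, 1651, 518 and 437 reads on a gene model of 2325 bp. Both control siRNA libraries were high and both Chaer siRNA libraries low, with the 2 pairs far apart and the intervals of the 2 Chaer siRNA libraries just overlapping. Comparisons over features used the 12226 whose mean RPKM over the 4 libraries was at least 1. Among them, H19 stood above 78.1% with control siRNA and above 68.1% when phenylephrine was added. With Chaer siRNA it stood above 30.0%, and above 27.1% with phenylephrine as well. H19 thus stood in the upper part of the range of measured genes with control siRNA and in the lower part with Chaer siRNA.

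The growth factor gene Igf2 gave the same order of libraries at lower levels. It was at 9.85 RPKM (9.32 to 10.4) with control siRNA, 7.44 (6.97 to 7.94) with control siRNA and phenylephrine, 4.09 (3.77 to 4.44) with Chaer siRNA and 3.34 (3.05 to 3.65) with Chaer siRNA and phenylephrine. The reads were 1296, 935, 588 and 485 on a gene model of 3557 bp. No 2 of these 4 intervals overlap, although the gap between the 2 Chaer siRNA libraries is narrow. Igf2 stood above 45.1% and 38.7% of compared features in the control siRNA libraries without and with phenylephrine, and above 23.1% and 20.1% in the Chaer siRNA libraries. For both members, each control siRNA library exceeded each Chaer siRNA library, which held for 22.0% of compared features. The full order of the 4 libraries that H19 and Igf2 have in common was that of 7.66% of compared features.

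**Figure D1:**
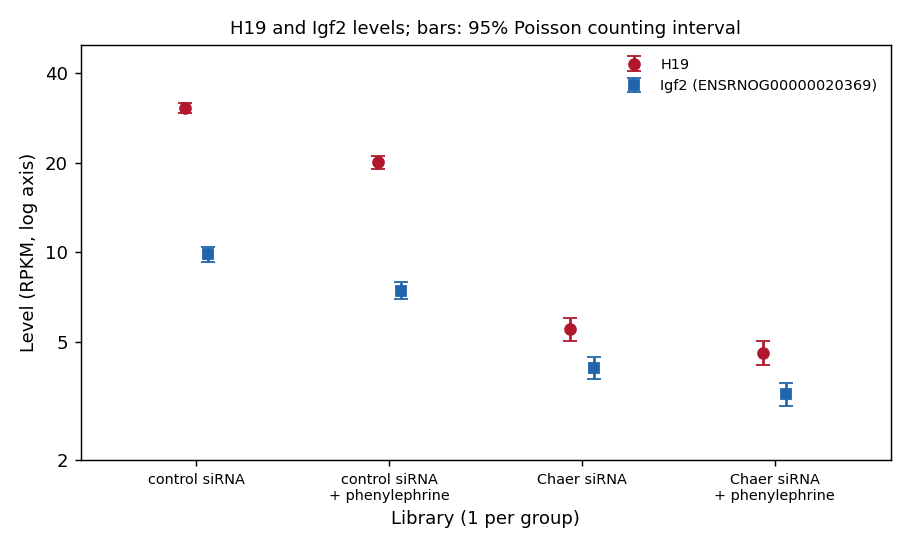
Levels of H19 (circles) and Igf2 (squares) in RPKM on a log axis for the 4 libraries, 1 per group, with 95% Poisson counting intervals. H19 runs from 30.6 RPKM with control siRNA to 4.60 with Chaer siRNA and phenylephrine, and Igf2 from 9.85 to 3.34 in the same order.

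The comparison of the siRNAs without phenylephrine addressed how myocytes given Chaer siRNA differed at baseline. H19 was 5.56 times lower with Chaer siRNA (5.05 to 6.12) and Igf2 2.41 times lower (2.18 to 2.66). On the log2 scale of (RPKM + 1), on which all features were ranked, the ratios were -2.28 for H19 and -1.09 for Igf2, beside a median of 0.02 and an SD of 0.39 over all 12226 features. H19 was the 5th lowest ratio and Igf2 the 107th. With no pseudocount they were the 13th and the 147th. Both members passed a size rule of 2-fold lower on this scale, which 1.11% of features passed. That share is given as background only, since the members were chosen with this comparison known.

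With phenylephrine in both libraries, the siRNA comparison comes from 2 other libraries and addressed the stimulated state. H19 was 4.37 times lower with Chaer siRNA (3.93 to 4.87) and Igf2 2.23 times lower (2.00 to 2.49). The log2 ratios of (RPKM + 1) were -1.91, the 4th lowest, and -0.96, the 118th lowest, beside a median of -0.03 and an SD of 0.36. With no pseudocount H19 was the 16th lowest and Igf2 the 184th. H19 passed the 2-fold rule and Igf2 lay just outside it, while 0.851% of features were 2-fold lower. The 1 RPKM added before the ratio draws low genes towards no change, and Igf2 is low enough for this to matter. On RPKM with nothing added both members were over 2-fold lower in both conditions, as were 1.10% of the 12223 features with reads in all 4 libraries. With (RPKM + 1) that held for H19 alone of the pair, and for 0.499% of compared features.

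**Figure D2:**
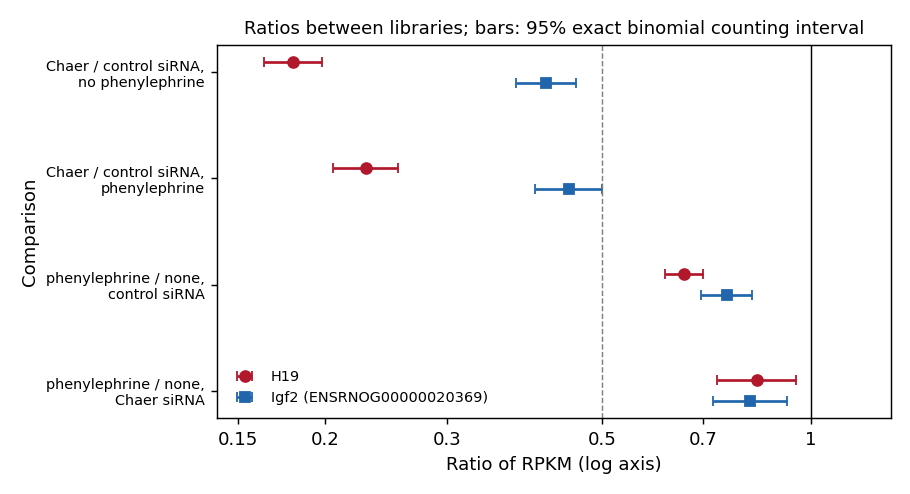
Ratios of RPKM between libraries on a log axis, with 95% exact binomial counting intervals, for H19 (circles) and Igf2 (squares) in the 4 comparisons. The solid line marks no difference and the dashed line 2-fold lower. H19 lies furthest left in the siRNA comparisons, at 5.56 and 4.37 times lower, and the members lie close together under phenylephrine with Chaer siRNA, at 1.20 and 1.23 times lower.

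Under control siRNA, the phenylephrine comparison addressed the response of the pair with Chaer not targeted. H19 was 1.52 times lower with phenylephrine (1.43 to 1.62) and Igf2 1.32 times lower (1.22 to 1.44). The log2 ratios of (RPKM + 1) were -0.58 and -0.36, beside a median of -0.07 and an SD of 0.35 over all features. Of compared features, 4.07% had a ratio at or below that of H19 and 13.5% at or below that of Igf2. Neither member passed the 2-fold rule, and 0.605% of features were 2-fold lower. This comparison and the siRNA comparison without phenylephrine share the control siRNA library, so a high or low value there enters both.

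Phenylephrine with Chaer siRNA gave the ratios nearest to 1 for the pair. H19 was 1.20 times lower (1.05 to 1.36) and Igf2 1.23 times lower (1.08 to 1.39). The log2 ratios of (RPKM + 1) were -0.22 for H19 and -0.23 for Igf2, beside a median of -0.10 and an SD of 0.38. A ratio at or below that of H19 was seen in 34.8% of features, and at or below that of Igf2 in 33.0%, so both sat inside the bulk of measured genes. Neither passed the 2-fold rule, and 0.875% of features were 2-fold lower. Relative to the median feature, H19 differed by -0.12 and Igf2 by -0.13.

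The difference between the phenylephrine effects under the 2 siRNAs was small beside the siRNA ratios. On log2 reads per library total it was 0.35 (0.14 to 0.55) for H19, so the phenylephrine ratio of H19 was nearer to 1 with Chaer siRNA. For Igf2 it was 0.11 (-0.10 to 0.32), an interval of counting error that includes 0. On (RPKM + 1) the differences were 0.37 and 0.13, beside an SD of 0.31 over all features and a median of -0.06. Neither reached 2-fold higher, which 0.319% of features did.

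Divided over the design, the variation of the pair lay mostly along the siRNA. Of the squared log2 differences of (RPKM + 1), 95.8% for H19 and 92.0% for Igf2 lay along the siRNA. Phenylephrine held 3.50% and 7.67%, and the departure from additivity 0.730% and 0.374%. With the squares summed over all compared features, the corresponding parts were 45.5%, 44.7% and 9.85%. Features with large changes weigh most in that sum, so it is not the split of a typical feature. The mean siRNA change over both conditions was -2.10 for H19, the 3rd lowest of 12226, and -1.03 for Igf2, the 93rd lowest. The mean phenylephrine change was -0.40 for H19 and -0.30 for Igf2, the 1245th and 2190th lowest.

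**Figure D3:**
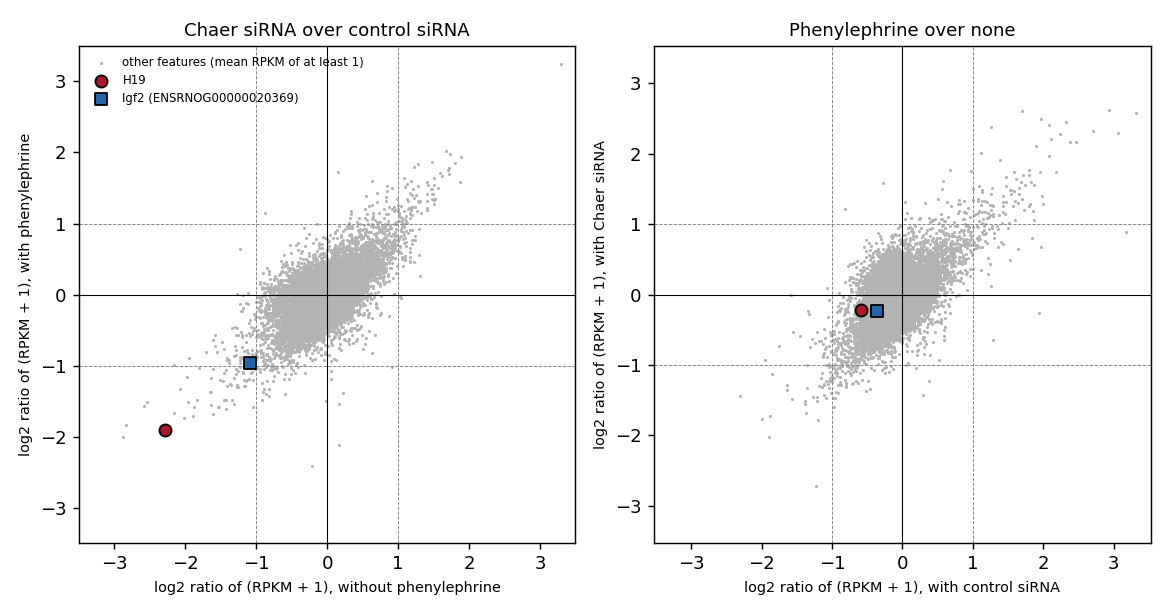
Log2 ratios of (RPKM + 1) of the 12226 compared features, with H19 and Igf2 marked; within each panel the x and y values come from separate libraries. Dashed lines mark 2-fold. Under Chaer siRNA (left) H19 lies at -2.28 and -1.91 and Igf2 at -1.09 and -0.96. Under phenylephrine (right) H19 lies at -0.58 with control siRNA and -0.22 with Chaer siRNA, and Igf2 at -0.36 and -0.23. With control siRNA, 4.07% of features lie at or below H19.

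H19 and Igf2 were both lower with Chaer siRNA but not by the same factor. The level of H19 over that of Igf2, both per kilobase in the same library, was 3.11 (2.91 to 3.33) with control siRNA and 2.70 (2.49 to 2.93) with control siRNA and phenylephrine. It was 1.35 (1.20 to 1.52) with Chaer siRNA and 1.38 (1.21 to 1.57) with Chaer siRNA and phenylephrine. The 2 control siRNA libraries thus lay high and the 2 Chaer siRNA libraries low, nearer to equal levels of both transcripts but with H19 still the higher per kilobase. This ratio is free of the scaling between libraries, which cancels within each one.

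Set against each other, the siRNA ratio of H19 was 2.31 times lower than that of Igf2 without phenylephrine (2.02 to 2.64) and 1.96 times lower with phenylephrine (1.68 to 2.28). For phenylephrine with control siRNA that factor was 1.15 (1.04 to 1.28). With Chaer siRNA it was 0.978 (0.821 to 1.16), an interval that includes 1. These intervals use a normal approximation on log counts and leave out any variation between cultures. In plain reads, Igf2, with the longer gene model, exceeded H19 in the Chaer siRNA libraries, with 588 against 518 reads without phenylephrine and 485 against 437 with it.

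**Figure D4:**
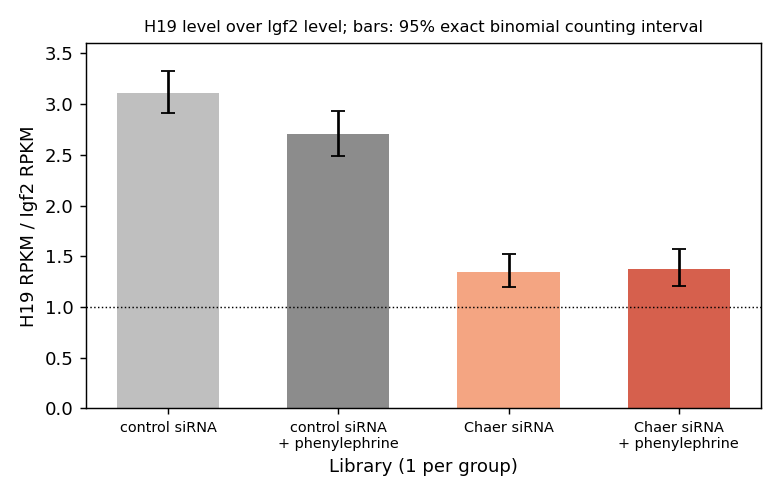
H19 level over Igf2 level (RPKM over RPKM) in each library, with 95% exact binomial counting intervals; the axis starts at 0 and the dotted line marks equal levels. The bars stand at 3.11 and 2.70 with control siRNA and at 1.35 and 1.38 with Chaer siRNA.

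Likeness to each member was measured over the 4 libraries as the distance between log2(RPKM + 1) profiles, each centred on its own mean. The feature nearest to H19 was ENSRNOG00000007159, at a distance of 0.34 beside a median of 2.14 over the 12225 other features. It had 96.6, 75.5, 25.5 and 22.4 RPKM in the control siRNA, control siRNA with phenylephrine, Chaer siRNA, and Chaer siRNA with phenylephrine libraries. It was thus 3.79 times lower (3.50 to 4.10) with Chaer siRNA without phenylephrine and 3.37 times lower (3.10 to 3.68) with it. The second nearest, at 0.40, rested on 46 to 318 reads a library. Igf2 was the 66th nearest to H19, at 1.08.

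The feature nearest to Igf2 was ENSRNOG00000010731, at a distance of 0.11 beside a median of 1.08. Its levels were 7.06, 5.59, 2.59 and 2.25 RPKM in the same order of libraries, 2.73 times lower (2.38 to 3.14) and 2.48 times lower (2.14 to 2.89) with Chaer siRNA without and with phenylephrine. The second nearest, also at 0.11, rested on 12 to 62 reads a library. Seen from Igf2, H19 was the 6109th nearest, at a distance of 1.08 that is the median over all features. This distance grows with a difference in amplitude, so it does not compare the shape of the profiles alone. By their levels, the pair had their order of libraries in common and not their amplitude. The files do not pair these identifiers with gene names.

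**Figure D5:**
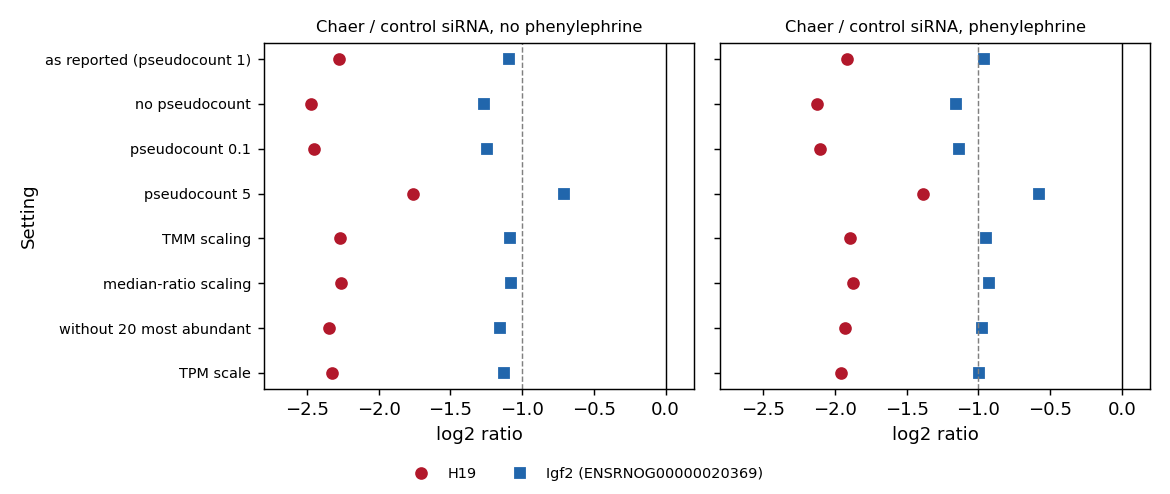
Log2 ratios of Chaer siRNA over control siRNA for H19 (circles) and Igf2 (squares) under 8 settings of pseudocount and scaling, without (left) and with (right) phenylephrine. The dashed line marks 2-fold lower. H19 is left of it in each setting, with -1.39 as the value nearest to 0, and Igf2 crosses it, from -1.27 to -0.58.

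In the log2 ratios under 8 settings of pseudocount and scaling, H19 stayed at least 2-fold lower with Chaer siRNA in 8 of 8 settings in both conditions. Igf2 was at least 2-fold lower in 7 of 8 settings without phenylephrine and in 2 of 8 with it. The pseudocount moved these values and the scaling hardly did. Over the scalings alone, Igf2 ranged from -1.16 to -1.08 without phenylephrine and from -0.99 to -0.92 with it. Beside their size, the phenylephrine ratios moved more with the scaling. With Chaer siRNA they ranged over the scalings from -0.22 to -0.12 for H19 and from -0.23 to -0.14 for Igf2. With control siRNA they ranged from -0.64 to -0.49 for H19 and from -0.41 to -0.28 for Igf2. The direction of each member was the same in each of the 8 settings. A pseudocount cannot reverse a ratio of 2 libraries, so for these ratios just the scalings could have changed it. With Chaer siRNA the phenylephrine ratio of H19 was -0.12 with TMM, and no counting interval was made at that scaling.

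One property of the files bears on H19. Each file lists its features from high to low RPKM, except H19, which stands last, in row 26406, and is the only feature with a symbol in place of an identifier. By its level it would stand in row 2675 with control siRNA. Whether H19 was counted separately from the other features was not tested. Its count and RPKM gave the same read total per library as the other features. Whether counting used the strand is not given in the sources used here, so reads of H19 or Igf2 and of any transcript antisense to them cannot be told apart here.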

How the data were processed

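RNA of 4 libraries was sequenced from TruSeq Stranded preparations of TRIzol-extracted total RNA, per the labels' protocols. The submitters' processing notes name TopHat2 and the build rn5. The counting tool, the annotation and any use of strand were not given in the sources used here. Each of 26406 features has, per the file headers, a read count and an RPKM value, both made by the authors and deposited per library. Counts divided by RPKM gave whole gene lengths times 1 read total per library, between 35314303 and 40835172. Of these reads, 3.88% to 4.29% were not in listed features.

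Folds printed as times lower are ratios of RPKM with nothing added. Log2 ratios, ranks and the 2-fold size rule used log2(RPKM + 1) over the 12226 features whose mean RPKM was at least 1. Intervals at 95% were exact Poisson for levels, exact binomial for ratios of counts, and normal on log counts for differences of ratios, with 0.5 reads added for the difference of effects. They cover counting error only, since each group was 1 library. The intervals also treat reads as independent molecules, which reads are not, so they may be too narrow. TMM factors came from edgeR 4.0.16 and median-ratio factors from DESeq2 1.42.0, both for scaling only, with no test by either. Other steps used Python 3.11.15 with scipy 1.17.1. The functions were tested on simulated data. The members, lists and rules were chosen with earlier results of these data known. The features named for likeness were planned as the 2 nearest to each member, of which the first is named. The 3 gene lists and the marker lists held symbols and could not be applied. Pseudocounts, filters, scalings and a 1.5-fold rule were varied.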

Additional observations from a re-analysis of the deposited data

How the results depend on the processing

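Of 115 recomputed values, 85 stayed within the counting interval of the reported value or, for counts of features, within 1.5 times of it. The other 30 moved further. Of the log2 ratios of the members, 0 changed direction, and direction was not scored for counts of features. For a ratio of 2 libraries a change of pseudocount could not have reversed it. H19 over Igf2 within a library is left out of the 115, since scaling cancels there. The siRNA log2 ratios moved with the pseudocount. Without phenylephrine, H19 was -2.47 with no pseudocount, -2.45 with 0.1 and -1.76 with 5, and Igf2 was -1.27, -1.25 and -0.71. With phenylephrine, the values were -2.13, -2.10 and -1.39 for H19 and -1.16, -1.13 and -0.58 for Igf2. A larger pseudocount draws ratios to 0 by construction. Of the scalings, TMM moved 1 value past its counting interval, H19 with phenylephrine under control siRNA, to -0.49. TMM also raised the median of all features by 0.10 for phenylephrine with Chaer siRNA.

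Features past the size rule in either direction numbered 261, 226, 211, 241 and 66 for Chaer siRNA without and with phenylephrine, phenylephrine with control and with Chaer siRNA, and the difference of effects. In that order they numbered 463, 433, 351, 424 and 205 with a pseudocount of 0.1, 92, 84, 93, 96 and 10 with 5, and 1363, 1074, 924, 1245 and 751 with the 1.5-fold rule. The difference of effects gave 108 on the TPM scale and 32 with a mean of at least 5 RPKM. The totals hide the split by direction. With TMM scaling, features lower with phenylephrine went from 74 to 47 with control siRNA and from 107 to 70 with Chaer siRNA. Those higher went from 137 to 169 and from 134 to 181. Features lower with Chaer siRNA went from 136 to 132 without phenylephrine and from 104 to 102 with it. No paired analysis was possible because there was just 1 library in every group, and leaving one out would empty its group. At 437 to 2635 reads a library, counting limits the levels of H19 to a CV of 1.95% to 4.78%, and those of Igf2 to 2.78% to 4.54%. Variation between cultures was not measured.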
